A study of Mus musculus with 8 samples.

Results

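Cells of the yolk sac that carried transcripts of vessel-lining cells were split by whether they also carried a transcript of Runx1. The 4 EMP libraries of the series hold 768 wells, 1 sorted cell per well, and 505 of these wells reached 5000 transcripts. Wells were chosen by measured transcripts: a well was taken as endothelial when at least 3 of 6 vessel genes were detected in it, namely Plvap, Clec14a, Cldn5, Cdh5, Kdr and Ramp2. This gave 146 wells of the 1536 in the series, of which 108 held Runx1 transcripts and 38 held none. By library, wells with Runx1 numbered 26, 20, 35 and 27 in libraries 1 to 4, and wells without Runx1 numbered 15, 7, 8 and 8.

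Both classes came from the same wild-type C57BL/6N mouse embryos at embryonic day 9.5, from the extraembryonic yolk sac, with no treatment. EMP is the deposited name of the gate, and the deposited note spells it out as erythromyeloid progenitors, which give rise to red cells, megakaryocytes and the earliest macrophages. Per the labels, the sort took CD45-positive cells after a stain for CD45 and CD11b, and libraries were made by mCEL-Seq2, which counts transcripts from their 3' ends. The EMP libraries were run beside A1/A2 libraries of myeloid progenitors and were not used in the published work. Nothing in the labels says that the 4 libraries came from separate embryos, so p-values measure only the spread between these libraries, which may be technical. All 8 libraries use 1 set of well barcodes, so a barcode found in several of them marks a position and not a shared cell.

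Blood first forms in the yolk sac, partly from hemogenic endothelium, vessel-lining cells that turn into round blood progenitors. Runx1, a DNA-binding factor that works with its partner Cbfb, is needed for that change, known as the endothelial-to-hematopoietic transition. During it, cells are known to gain blood genes such as Gfi1, Gfi1b, Myb and Itga2b and to lose the junction and vessel genes of their origin. Endothelium of the yolk sac is known to express Lyve1, otherwise a mark of lymph vessels.

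Wells with Runx1 were higher in many blood genes and lower in some vessel genes than wells without Runx1. Of 25 tested pan-endothelial genes outside the rule, 14 did not pass, 8 were lower and 3 higher. Platelet and white-cell genes (Plek, Fermt3, Coro1a, Rac2), the surface proteins Adgrg1, Kit and Cd34, and the blood regulators Ikzf1, Ikzf2, Myb and Bcl11a were higher in wells with Runx1. Vein and lymph-vessel genes (Aplnr, Stab1, Stab2, Nrp2, Lyve1), basement membrane genes and Bmp4 were lower in them. Lyve1 was lower over all wells but higher among wells that met the rule with 3 or 4 genes. Among those wells, endothelial genes outside the rule went both ways. The classes also differed in how the rule was met, since most wells with Runx1 passed it with 3 or 4 of the 6 genes. Among wells with at least 5 of the 6 genes, Plek, Adgrg1, Ikzf1, Ikzf2, Kit and Mycn were still higher, and Aplnr, Stab2, Gpr182, Nrp2 and Lyve1 lower, in wells with Runx1.

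Runx1 proteins bind the letters TGTGGT, so promoters are shown with that run, on either strand (TGTGGT or ACCACA), in capitals. The 3 windows were picked among those that hold it, which 4 of 33 named higher genes and 3 of 27 named lower genes with a window did, and those of Plek, Adgrg1, Coro1a, Ikzf1, Stab1 and Mest did not. Fermt3, which codes for an integrin activator of blood cells, and Itga4, the alpha-4 chain of the receptor that holds progenitors to matrix, were among the higher genes. Stab2, a scavenger receptor of vein-like endothelium, was among the lower ones. Each line gives the 250 bases before the gene's start, from RefSeq on the build GRCm38.p6, 5' to 3' on the gene's strand. The windows lie at chr19:7019470-7019719 on the minus strand for Fermt3, chr2:79255176-79255425 on the plus strand for Itga4 and chr10:87007943-87008192 on the minus strand for Stab2.
Fermt3: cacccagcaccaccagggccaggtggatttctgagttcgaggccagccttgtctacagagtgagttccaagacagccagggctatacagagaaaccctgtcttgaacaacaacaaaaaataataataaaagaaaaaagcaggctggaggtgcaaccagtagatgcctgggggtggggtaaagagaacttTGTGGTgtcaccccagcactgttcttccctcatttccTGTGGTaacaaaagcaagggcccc
Itga4: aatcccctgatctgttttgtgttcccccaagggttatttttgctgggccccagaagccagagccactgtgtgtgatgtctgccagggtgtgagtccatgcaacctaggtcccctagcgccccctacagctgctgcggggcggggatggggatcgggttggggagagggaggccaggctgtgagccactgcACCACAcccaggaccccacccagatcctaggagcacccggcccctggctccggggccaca
Stab2: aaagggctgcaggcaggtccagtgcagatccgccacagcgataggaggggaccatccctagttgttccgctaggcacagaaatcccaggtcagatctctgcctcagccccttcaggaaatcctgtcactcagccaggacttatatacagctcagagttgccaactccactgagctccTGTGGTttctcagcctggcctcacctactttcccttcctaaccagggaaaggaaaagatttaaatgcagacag
The runs begin 61 and 24 bases before the start of Fermt3, 60 bases before that of Itga4 and 73 bases before that of Stab2. Such a run was found in 15.2% of the windows of genes higher in wells with Runx1 (39 of 256 genes with a window) and in 13.0% of those of lower genes (45 of 347). All genes tested had it in 12.2% (665 of 5472), and all windows of the table in 14.0%. The match is a description of letters and not a binding site.

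Runx1 chose the classes, so its levels are given without a test. Wells with Runx1 held a median of 5 and at most 26 Runx1 transcripts, 10 of these wells held 1, and 28 held 10 or more. Their summed level was 156, 101, 174 and 178 transcripts per 1000000 in libraries 1 to 4. Of 161 endoderm wells of the same libraries, 16.1% held at least 1 Runx1 transcript, and the source of these transcripts was not tested. Wells with Kit and Runx1 were not left out of the endoderm wells. Some of them can therefore be blood progenitor wells, and their levels are not a clean background. The endoderm wells had a median total of 32542 transcripts, higher than that of either endothelial class, and a Runx1 level of 6.56 transcripts per 1000000. When wells were thinned to 5000 transcripts, Runx1 was found in 65 of the 108 wells with Runx1 and in 7 of the 161 endoderm wells.

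The classes also differed in depth. Wells with Runx1 held a median of 27312 transcripts, and wells without Runx1 held 15129. The difference of log2 medians within libraries averaged 0.65 ± 0.45 (SD, n = 4), or 1.57-fold, and was above 0 in 4 of 4 libraries. A two-sided exact permutation test over library pairs gave p = 0.125, the smallest that 4 pairs allow. Comparisons were therefore repeated after each well was thinned to 5000 transcripts.

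The number of vessel genes detected, which set the rule, varied within both classes and is given as a description. Over all EMP wells of 5000 or more transcripts, the share with Runx1 was 21.9% of 128 wells with none of the 6 vessel genes, 80.0% of 50 wells with 3 and 56.8% of 37 wells with all 6. Of the wells with Runx1, 69 of 108 passed with 3 or 4 genes and 39 with 5 or 6. Of the wells without Runx1, 15 of 38 passed with 3 or 4 genes and 23 with 5 or 6. In the wells with Runx1 and 3 or 4 genes, Cdh5, the adhesion protein of endothelial junctions, stood at 23.7 transcripts per 1000000 over all their transcripts, and Cldn5, another junction protein, at 4.39. Wells without Runx1 and 3 or 4 genes had 12.5 of Cdh5 and 7.14 of Cldn5. Wells with Runx1 and 5 or 6 genes had 63.5 of Cdh5 and 52.7 of Cldn5, and wells without Runx1 and 5 or 6 genes had 148 of Cdh5 and 196 of Cldn5. Blood progenitor wells of the same libraries (118 wells with Kit and Runx1 and fewer than 3 vessel genes) had 4.0 of Cdh5 and 1.05 of Cldn5. In both classes, wells with 3 or 4 genes carried little Cdh5 or Cldn5, and they are named endothelial by the rule alone. Such wells with Runx1 resembled blood progenitor wells in Plek (175 and 171), Adgrg1 (148 and 146) and Aplnr (1.01 and 1.05). The same wells exceeded blood progenitor wells in Tie1 (145 and 91.8), Esam (45.3 and 18.5) and Lyve1 (136 and 48.4). Endothelial genes outside the rule went both ways among wells of 3 or 4 genes, 69 with and 15 without Runx1. Higher with Runx1 were Tie1 (145 with Runx1 and 42.8 without), Pecam1 (37.5 and 21.4), Esam (45.3 and 28.5) and Lyve1 (136 and 26.8). Lower with Runx1 were Emcn (3.04 with Runx1 and 12.5 without), Aplnr (1.01 and 23.2) and Nrp2 (50.1 and 105). Emcn rests on only 9 and 7 transcripts and Aplnr on 3 and 13, with and without Runx1, while Nrp2 had 148 and 59. Stab2 (1.69 and 3.57) had 5 and 2 transcripts, too few to give a direction. Of the higher genes, wells without Runx1 held 24 transcripts of Tie1, 12 of Pecam1, 16 of Esam and 15 of Lyve1. Wells just inside, with exactly 3 genes, had Kdr at 57.6 transcripts per 1000000, and 80.0% of them held Runx1. Wells just outside, with exactly 2, had 25.7 and 80.2%.

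**Figure D1:**
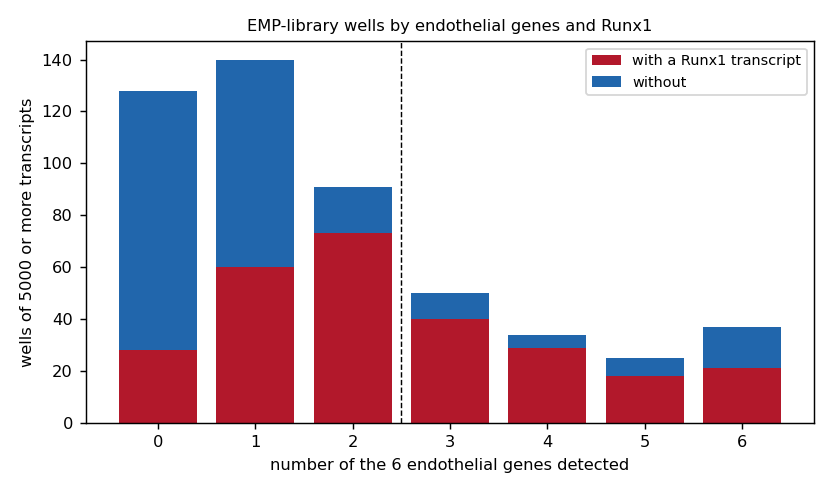
Wells of the 4 EMP libraries with 5000 or more transcripts, by how many of the 6 endothelial genes were detected (x axis) and by Runx1 (red with a transcript, blue without). The y axis counts wells, and the dashed line marks the endothelial rule, to the right of which 108 wells held Runx1 and 38 did not.

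The 6 vessel genes chose the wells and are described only. Kdr, the main receptor for VEGF, had 73.1, 65.4, 97.6 and 91.9 CPM (counts per 1000000 of the scaled sum) in wells with Runx1 of libraries 1 to 4, and 404, 222, 254 and 303 CPM in wells without Runx1. Ramp2, part of the adrenomedullin receptor, averaged 66.9 ± 11.2 CPM in wells with Runx1 and 220 ± 13.1 CPM in wells without Runx1 (SD, n = 4 libraries each). Plvap, a protein of endothelial pores, averaged 152 ± 24.9 CPM in wells with Runx1 and 352 ± 67.8 CPM in wells without Runx1. Clec14a and Cldn5 had non-overlapping library values too, lower with Runx1, while the values of Cdh5 overlapped, with 19.5 to 48.0 CPM in wells with Runx1 and 33.6 to 105 CPM in wells without Runx1.

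Estimated counts were summed per library and class and compared with edgeR's quasi-likelihood test, with library as a block. Of 7151 genes tested, 808 (11.3%) passed an adjusted p of 0.05. Of these, 341 (4.77% of genes tested) were higher and 467 (6.53%) lower in wells with Runx1, and the 6 vessel genes are among the lower ones. A change of at least 2-fold was seen for 187 of the higher and 150 of the lower genes. In 778 genes (10.9%) the libraries of both classes did not overlap. In wells thinned to 5000 transcripts, 218 of 1438 genes tested passed (15.2%), 90 higher (6.26%) and 128 lower (8.9%), and 173 of them had also passed in whole wells, all in the same direction. Repeated random draws gave 65 higher and 127 lower genes (draw 2) and 61 higher and 145 lower genes (draw 3). When wells of both classes were paired by total within 1.2-fold, which kept 10, 5, 7 and 6 wells of each class in libraries 1 to 4, 845 of 3707 genes passed (22.8%). Of these, 351 (9.47% of genes tested) were higher and 494 (13.3%) lower with Runx1. Of the named genes called over all wells, Stab2, Mrc1, Nrp1, Flt1, Cd93, Mmrn2 and Pcna missed the threshold in these matched wells.

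The filter on low counts asks for a minimum level in 4 of the 8 sums, so a gene can be tested through 1 class alone and then could hardly come out lower in that class. This held for many list members: 6 of the 9 tested blood surface genes, 11 of the 14 blood signalling and actin genes, 10 of the 16 blood transcription factors and 5 of the 6 megakaryocyte genes reached that level in every library with Runx1 but not in every library without it. In the other direction it held for 5 of the 9 tested vein and lymph-vessel genes and 6 of the 25 pan-endothelial genes. Over all genes tested, the numbers were 1096 through wells with Runx1 and 302 through wells without Runx1. The counts per list below are therefore a description, partly set by this filter, and not support for a direction. Of all 4951 genes at that level in 8 of 8 sums, 186 were higher and 387 lower. Among them, 2 of 3 blood surface genes, 1 of 3 blood signalling and actin genes and 3 of 6 blood transcription factors were higher. Of the vein and lymph-vessel genes at that level, 4 of 4 were lower. Of 13 pan-endothelial genes at that level, 1 was higher and 3 were lower.

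Blood surface and adhesion genes were higher in wells with Runx1. Adgrg1 (GPR56), an adhesion receptor of emerging blood stem and progenitor cells, had 137, 73.5, 125 and 171 CPM in wells with Runx1 of libraries 1 to 4, and 5.66, 12.3, 23.98 and 12.3 CPM in wells without Runx1. Its classes did not overlap, and its log2 fold change was 3.37 ± 0.32 (SE, adjusted p = 1.56e-08). Kit, the receptor for stem cell factor, had 109, 58.5, 133 and 114 CPM in wells with Runx1 and 31.1, 55.4, 33.6 and 20.5 CPM in wells without Runx1. The lowest library with Runx1 lay close to the highest without it, both being library 2, and the log2 fold change was 1.65 ± 0.28 (adjusted p = 0.000225). Cd34, a sialomucin shared by blood progenitors and endothelium, had 194, 89.5, 178 and 264 CPM in wells with Runx1, against 70.7, 55.4, 67.1 and 61.4 CPM in wells without Runx1 (log2 fold change 1.51 ± 0.20, adjusted p = 4.94e-06). Of the 20 early blood surface genes listed, 9 could be tested, 8 were higher, none was lower, and their median log2 fold change was 1.65, beside 0.00 over the 7145 tested genes outside the rule. Itgb3 and Treml2 rose with log2 fold changes of 2.87 and 3.02. Itga2b (CD41), an early mark of blood commitment, averaged 46.3 ± 5.4 CPM in wells with Runx1 and 20.8 ± 9.5 CPM in wells without Runx1 (log2 fold change 1.15 ± 0.33, adjusted p = 0.0194). Fcgr3 did not pass.

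Ptprc, which codes for the CD45 used in the sort, was too low to test. It was found in 24 of 108 wells with Runx1 and in 2 of 38 wells without Runx1, with 56 and 3 transcripts in all. In endoderm wells, which can include wells with Kit and Runx1, the share was 6.83%, beside 5.26% in wells without Runx1. Spn, with 68 transcripts in wells with Runx1 and 1 in wells without Runx1, and Procr, with 83 and 4, were likewise below the filter.

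Genes of white-cell signalling and the blood-cell actin skeleton were raised too. Of 22 listed, 14 could be tested, 12 were higher, none was lower, and the median log2 fold change was 2.16. Plek (pleckstrin), a protein kinase C substrate of platelets, had 170, 119, 144 and 139 CPM in wells with Runx1 of libraries 1 to 4, against 0, 30.8, 19.2 and 8.18 CPM in wells without Runx1 (log2 fold change 3.64 ± 0.41, adjusted p = 1.3e-05). Fermt3 had 47.4, 52.8, 68.5 and 79.6 CPM in wells with Runx1, against 0, 6.16, 9.59 and 4.09 CPM in wells without Runx1, and had the highest fold change of the named genes (3.82 ± 0.46, adjusted p = 1.22e-06). No library overlapped for either gene. The coronin Coro1a, which binds actin, the GTPase Rac2 and the adaptor-like lysosomal protein Laptm5 rose with log2 fold changes of 3.45, 3.08 and 2.24, and the phosphatase Ptpn6 (SHP-1) with 2.03. Lcp1 (L-plastin) and Stk10 did not pass, at -0.24 and 0.33.

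Of 26 blood transcription factors listed, Runx1 not among them, 16 could be tested, 13 were higher and none was lower, with a median log2 fold change of 1.93. Ikzf2 (Helios) had 107, 66.6, 130 and 129 CPM in wells with Runx1 of libraries 1 to 4, against 11.3, 6.16, 23.98 and 12.3 CPM in wells without Runx1 (log2 fold change 3.02 ± 0.30, adjusted p = 3.75e-08). Ikzf1 (Ikaros), a regulator of lymphoid and myeloid fate, averaged 75.9 ± 26.3 CPM in wells with Runx1 and 11.7 ± 5.8 CPM in wells without Runx1 (log2 fold change 2.90 ± 0.37). Both zinc-finger genes had 4 of 4 libraries higher with Runx1. Myb, needed for definitive but not for primitive blood, had 44.6, 23.0, 40.0 and 83.7 CPM in wells with Runx1 and 2.83, 6.16, 9.59 and 4.09 CPM in wells without Runx1 (log2 fold change 3.20 ± 0.47, adjusted p = 2.46e-05). Bcl11a, a repressor of embryonic globin in later red cells, rose by 2.73 on the log2 scale, Nfe2 by 2.79 and Gfi1b by 2.69. Gfi1b and its relative Gfi1 are known targets through which Runx1 shuts down endothelial genes in mice. Gfi1 itself, with 45 transcripts in wells with Runx1 and 2 in wells without Runx1, was too low to test, as was the myeloid factor Spi1 (PU.1), with 108 and 4.

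Factors known in both blood and endothelium rose as well. Lmo2 (1.92), Tal1 (1.95), Gata2 (1.45), Meis1 (1.5), Cbfa2t3 (1.61), Zfpm1 (1.98) and Etv6 (1.05) rose on the log2 scale. Gata2, needed for the first blood stem cells, averaged 70.3 ± 30.6 CPM in wells with Runx1 and 25.5 ± 11.8 CPM in wells without Runx1. The factors that did not pass were Cbfb, the partner of Runx1, at 0.34 ± 0.17 on the log2 scale, Hhex at 0.15 ± 0.34 and Fli1 at 0.12 ± 0.25. For Fli1, a factor of both lineages, the library values overlapped, with 28.7 to 82.7 CPM in wells with Runx1 and 18.5 to 77.7 CPM in wells without Runx1.

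**Figure D2:**
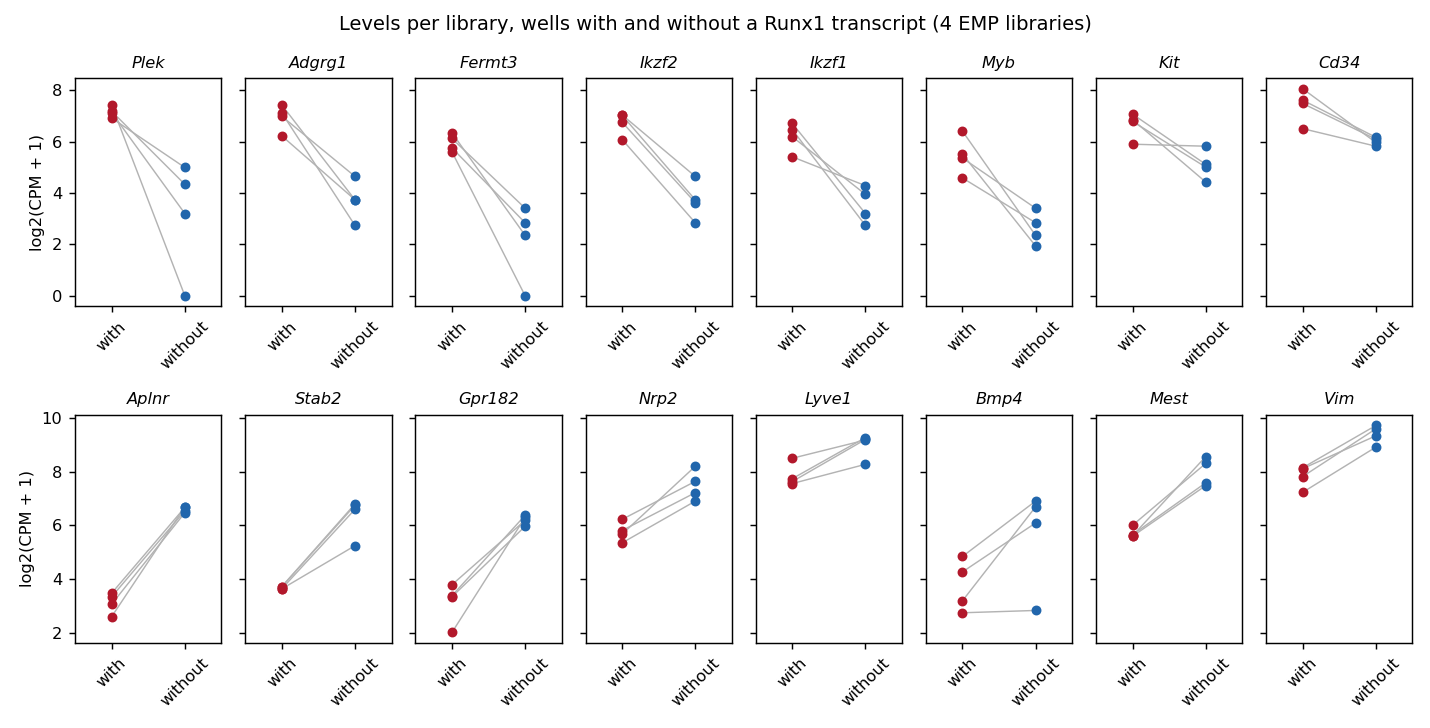
Levels of 16 named genes per library on a log2(CPM + 1) scale (y axis), in wells with Runx1 (red, left) and wells without Runx1 (blue, right), with grey lines joining the classes of 1 library. The upper row holds genes higher with Runx1 and the lower row genes lower with it, and for Adgrg1 and Aplnr the 4 red and 4 blue points do not overlap.

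Genes of single blood lineages were mostly too low to test. Of 15 megakaryocyte genes, 6 could be tested and 5 were higher, among them Plek, Nfe2, Rab27b and Itga2b, with Cd9 not past the threshold at -0.21. Pf4, the platelet chemokine, had 570 transcripts in wells with Runx1 and 4 in wells without Runx1 but missed the filter on low values. Of 18 granulocyte and macrophage genes, only Prtn3, a protease of early granulocyte precursors, and Mrc1 could be tested. Prtn3 was higher, with 28.8 ± 8.8 CPM in wells with Runx1 and 4.62 ± 6.79 CPM in wells without Runx1, and Mrc1, a receptor that macrophages and vein-like endothelium share, was lower (log2 fold change -1.53, and -0.44 with adjusted p = 0.501 in matched wells). Csf1r, the receptor for macrophage growth factor, was too low to test, with 94 transcripts in wells with Runx1 and 5 in wells without Runx1. It was found in 39.8% of wells with Runx1 and 13.2% of wells without Runx1, beside 28.0% of endoderm wells.

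Red-cell genes differed less clearly. Of 18 listed, 9 could be tested and 2 were higher, carbonic anhydrase Car2 at 1.29 ± 0.19 and the adult-type globin Hbb-bt at 2.12 ± 0.50. Hbb-bt is nearly identical to its neighbour Hbb-bs, and how the authors' counting split such reads is not given in the sources used here. The embryonic globin Hba-x had 1513, 1918, 177 and 221 CPM in wells with Runx1 of libraries 1 to 4, against 209, 351, 345 and 127 CPM in wells without Runx1, and did not pass (log2 fold change 1.43 ± 0.89, adjusted p = 0.439). A single well with Runx1 in library 1 and another in library 2 held 77.3% of all Hba-x transcripts of the 146 wells. In thinned wells Hba-x stood at -0.19.

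The lowered genes were led by vein and lymph-vessel genes. Of 12 listed, 9 could be tested and all 9 were lower, with a median log2 fold change of -1.59. Aplnr, the apelin receptor of veins and early mesoderm, had 7.44, 9.18, 10.2 and 5.1 CPM in wells with Runx1 of libraries 1 to 4, against 87.7, 92.3, 101 and 102 CPM in wells without Runx1 (log2 fold change -3.55 ± 0.29, adjusted p = 1.42e-09). Stab2 had 12.2, 11.5, 11.5 and 12.3 CPM in wells with Runx1 and 110, 36.9, 95.9 and 106 CPM in wells without Runx1 (log2 fold change -2.91 ± 0.29, adjusted p = 3.27e-08), and missed the threshold in wells matched by total (-1.59 ± 0.67, adjusted p = 0.137). Within each class these libraries lay close together, apart from library 2 of the wells without Runx1 for Stab2. The hyaluronan receptor Lyve1 was the most abundant of the list, with 212, 187, 360 and 197 CPM in wells with Runx1 and 614, 308, 576 and 585 CPM in wells without Runx1. Its library values overlapped across libraries but were lower with Runx1 in each of the 4 (log2 fold change -1.15 ± 0.15, adjusted p = 4.98e-06). Nrp2, a co-receptor for VEGF-C, and the venous factor Nr2f2 stood at -1.77 and -1.59. Nrp2 was also found in 116 of 161 endoderm wells. On the scale used above for Cdh5, it stood at 53.1 in those endoderm wells. Wells with 3 or 4 vessel genes had 50.1 of Nrp2 with Runx1 and 105 without Runx1. What part endoderm RNA has in the difference of Nrp2 was not tested. In matched wells 4 of 6 tested members of the list were lower, beside 13.3% of all genes tested there. These were Aplnr at -3.26, Nrp2 at -2.32, Maf at -1.49 and Lyve1 at -0.70.

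Arterial and Notch genes were mostly too low, with 7 of 20 tested. The lower ones were Nrp1 (-1.88, and -0.75 with adjusted p = 0.173 in matched wells), Sox17 (-1.65), Efnb2 (-1.28) and the Notch target Hes1 (-0.999). Vegfc, a growth factor for lymph vessels, was higher, with 28.4, 26.4, 36.6 and 37.8 CPM in wells with Runx1 of libraries 1 to 4, against 0, 12.3, 14.4 and 16.4 CPM in wells without Runx1 (log2 fold change 1.76 ± 0.47, adjusted p = 0.0121). Gja4 (1.21) and Unc5b (-0.59) did not pass.

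Pan-endothelial genes outside the rule moved in both directions. Of 34 listed, 25 could be tested, of which 8 were lower and 3 higher, with a median log2 fold change of -0.57. Gpr182, an atypical chemokine receptor of endothelium, had 9.47, 9.18, 12.9 and 3.06 CPM in wells with Runx1, against 82.0, 61.6, 71.9 and 77.7 CPM in wells without Runx1 (log2 fold change -3.07 ± 0.33, adjusted p = 1.75e-07). Nos3, Mmrn2, Cd93 and Flt1 were lower too, at -1.97, -1.53, -1.25 and -1.18. In wells matched by total, Mmrn2 (-0.74, adjusted p = 0.219), Cd93 (-0.41, adjusted p = 0.245) and Flt1 (-0.19, adjusted p = 0.684) missed the threshold. Of 17 list members tested there, 4 were higher (Tal1, Erg, Afap1l1 and Tie1) and 1, Emcn, was lower, at a median of -0.16. Over all genes tested in matched wells, 9.47% were higher and 13.3% lower. The 3 higher genes were Tal1, the ETS factor Erg (1.22) and Afap1l1 (1.10). Tal1 stands in the blood list as well, and Erg is also known in blood stem cells. Pecam1 (CD31) averaged 47.9 ± 7.9 CPM in wells with Runx1 and 67.6 ± 29.5 CPM in wells without Runx1, and Tie1 161 ± 55.9 CPM in wells with Runx1 and 150 ± 23.9 CPM in wells without Runx1. Neither passed, and Esam did not either (-0.67 ± 0.23, adjusted p = 0.0588).

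Matrix and junction genes gave 8 lower and no higher genes of 18 tested (24 listed), at a median of -0.70. Vimentin (Vim), an intermediate filament protein, had 225, 149, 275 and 282 CPM in wells with Runx1 of libraries 1 to 4, against 769, 480, 643 and 839 CPM in wells without Runx1 (log2 fold change -1.56 ± 0.12, adjusted p = 6.74e-10). The matrix protein Sparc (-1.14) and the basement membrane collagen Col4a2 (-1.09), like Col4a1, were lower with no overlap of libraries. In the BMP and TGF-beta list, 12 of 18 genes could be tested, 3 were lower and none higher. Bmp4, the ligand that patterns yolk sac mesoderm, had 27.7, 5.74, 18.3 and 8.17 CPM in wells with Runx1 of libraries 1 to 4, against 119, 6.16, 67.1 and 102 CPM in wells without Runx1 (log2 fold change -2.27 ± 0.31, adjusted p = 1.09e-05). Library 2 held nearly the same low level in both classes. The BMP targets Id3 (-1.28) and Id2 (-0.58) were lower, while Bmpr2 and Smad1 did not pass. In library 2, Id2 was not lower, with 356 CPM in wells with Runx1 and 345 CPM in wells without Runx1. Among wells with at least 5 of the 6 vessel genes, Id2 stood at -0.01 (adjusted p = 0.994) and Id3 at -1.48. In wells matched by total, Id2 stood at -1.47 and Id3 at -1.55. Why Id2 varied between these settings was not tested. Among the genes outside the lists, the imprinted Mest (-2.35) and Plagl1 (-2.23), the cytoskeletal genes Amotl1 (-2.86) and Cald1 (-1.88), the adhesion genes Flrt2 (-2.75) and Pcdh17 (-2.57), and Crip2, Gap43 and Ccnd1 were lower.

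**Figure D3:**
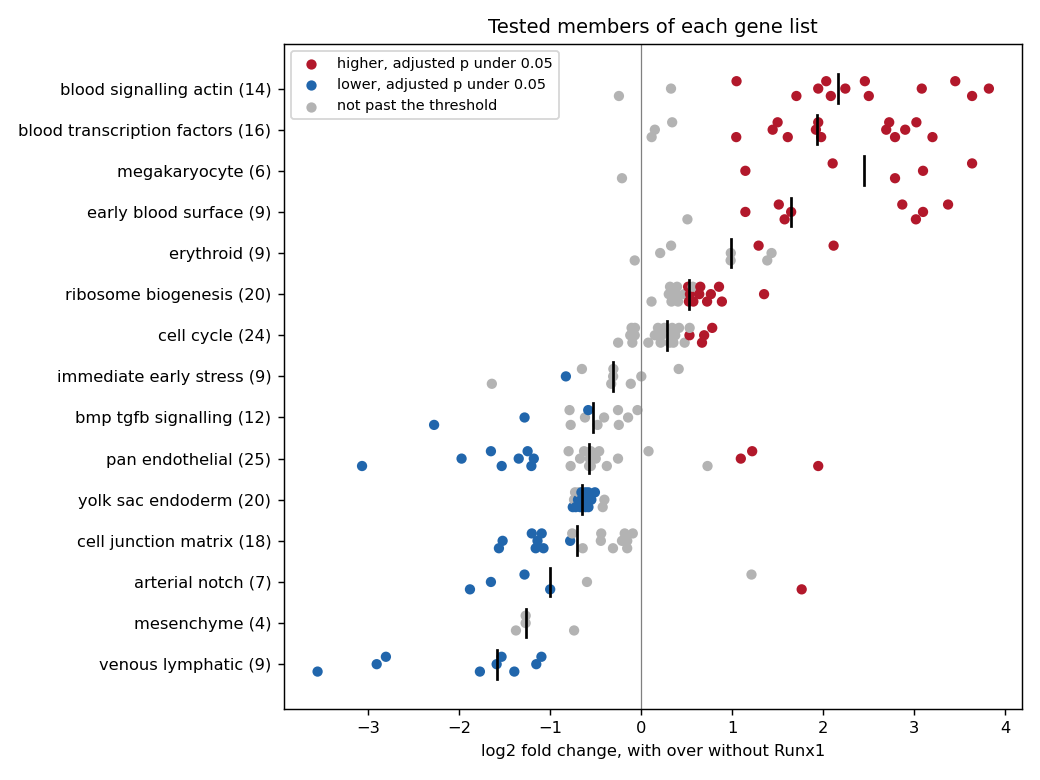
Log2 fold change, wells with over wells without Runx1 (x axis), of every tested member of 15 gene lists, with the number tested in brackets. Red and blue points passed the adjusted p of 0.05 as higher or lower, grey points did not, and black ticks are list medians, at 2.16 for blood signalling and actin genes and -1.59 for venous and lymphatic genes.

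Growth-related lists moved by small amounts. Of 20 ribosome biogenesis genes, all tested, 11 were higher and none lower, with a median log2 fold change of 0.53. Npm1, the nucleolar chaperone nucleophosmin, averaged 3555 ± 360 CPM in wells with Runx1 and 2469 ± 197 CPM in wells without Runx1 (log2 fold change 0.53 ± 0.10, adjusted p = 0.000975). Of 24 cell cycle genes, 4 were higher (Mcm2, Mcm4, Pcna and Ccnb2, at 0.53 to 0.78) and none lower, and in thinned wells none of 18 tested passed. Of 9 immediate early and stress genes tested, which rise with handling of cells, only Klf6 passed, at -0.83.

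Transcripts of other tissues moved with the classes. Of 20 yolk sac endoderm genes, 15 were lower in wells with Runx1, at a median of -0.65, and none higher. Endoderm genes made up a median of 0.388% of transcripts in wells with Runx1 (range 0.0395% to 3.77%) and 0.896% in wells without Runx1 (0.128% to 4.51%), beside 3.30% in endoderm wells. Apoa1 averaged 2046 ± 845 CPM in wells with Runx1 and 3182 ± 646 CPM in wells without Runx1. With wells of at least 5 of the 6 vessel genes, none of 19 endoderm genes passed and the median was 0.27, so the sign turned. With wells matched by total, 19 of 19 were lower at a median of -1.32, beside 13.3% lower of all genes tested there. Apoa1 stood at -1.62 and Ttr at -1.59 in these wells. On the scale used above for Cdh5, Apoa1 stood at 3714 in wells without Runx1 that had 3 or 4 vessel genes. Those with 5 or 6 had 1924. Wells with Runx1 had 1951 and 1969, and endoderm wells 4189. Ttr stood at 5391 and 3255 without Runx1, 2994 and 3150 with Runx1, and 6762 in endoderm wells. Wells with 3 or 4 genes and no Runx1 had Kdr at 58.9 and Ramp2 at 76.7, beside 2.44 and 19.5 in endoderm wells. Of 14 mesenchyme genes, 4 could be tested and none passed. Col1a1 had 1252 CPM in the wells without Runx1 of library 3, where 1 well held 32.3% of its transcripts in all 146 wells, and at most 45.3 CPM in wells without Runx1 of the other libraries. Mitochondrial transcripts took a median of 18.9% in wells with Runx1 and 23.2% in wells without Runx1. What part endoderm RNA, mitochondrial share or cells captured together have in the differences was not tested. Without wells at or above 1.5% endoderm transcripts, an alternative chosen after seeing the data, 284 of 3186 genes passed, Adgrg1 and Plek stood at 3.31 and 2.63, and Aplnr at -4.33. No doublet caller was run, because cells were sorted singly. Without the 15 wells whose totals passed 3 times the median of the endothelial wells in the same library, Adgrg1 and Kit stood at 4.62 and 1.96.

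Of the genes called in whole wells, 302 could still be tested in thinned wells, and 2 of them had the other sign there. Adgrg1 stood at 4.52 ± 0.80 (adjusted p = 7.38e-07), Laptm5 at 2.73, Plek at 2.67, Kit at 1.90 and Cd34 at 1.30, all higher with Runx1. Aplnr stood at -4.48 ± 0.67 (adjusted p = 2.64e-09), Mest at -2.53, Nrp2 at -2.33, Vim at -1.76 and Lyve1 at -1.41. In draws 2 and 3 Adgrg1 stood at 4.56 and 4.31, Aplnr and Kit were below the filter on low values in both, Nrp2 in draw 2 and Plek in draw 3, and Cd34 missed the threshold in draw 3 (0.70 ± 0.33, adjusted p = 0.152). In wells, thinning left Adgrg1 in 56 of 108 wells with Runx1 and in 1 of 38 wells without Runx1, beside 7 of 161 endoderm wells. Cd34 was left in 67 of 108 wells with Runx1 and 12 of 38 wells without Runx1, beside 4 of 161 endoderm wells, and Aplnr in 2 of 108 wells with Runx1 and 13 of 38 wells without Runx1, beside 0 endoderm wells. Before thinning, the shares with Adgrg1 were 90.7% of wells with Runx1, 18.4% of wells without Runx1 and 24.2% of endoderm wells. Wells without Runx1 thus held Adgrg1 no more often than endoderm wells, which can include wells with Kit and Runx1.

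**Figure D4:**
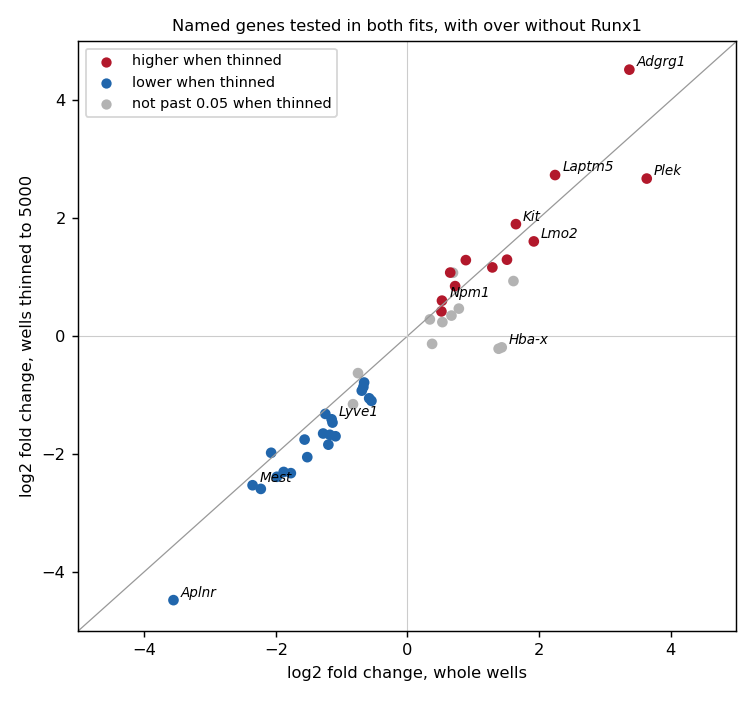
Log2 fold changes, with over without Runx1, of named genes tested both in whole wells (x axis) and in wells thinned to 5000 transcripts (y axis), the 6 vessel genes left out. Red and blue points passed the adjusted p of 0.05 when thinned, grey ones did not, and the line marks equal values, with Adgrg1 at 3.37 and 4.52.

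The stricter reading kept to wells with at least 5 of the 6 vessel genes, 39 with Runx1 and 23 without, called strict wells here. Of 4974 genes tested, 122 passed (2.45%), 24 higher (0.483%) and 98 lower (1.97%), and 113 of them had passed over all wells. Library 2 entered with 6 wells with Runx1 and 2 without. Adgrg1 had 35, 20, 71 and 54 transcripts in wells with Runx1 of libraries 1 to 4, and 2, 0, 0 and 1 in wells without Runx1 (log2 fold change 3.998 ± 0.606, adjusted p = 0.000127). Plek had 31, 26, 92 and 35 transcripts in wells with Runx1 and 0, 0, 1 and 1 in wells without Runx1 (log2 fold change 4.22 ± 0.69, adjusted p = 0.000322). Strict wells without Runx1 thus held 3 and 2 transcripts of these blood genes in all. Their sums were small in libraries 2 and 3, where 1 transcript equalled 38.1 and 23.7 CPM, beside 3.53 and 7.52 CPM in libraries 1 and 4. A count of 0 in libraries 2 and 3 therefore says little. The filter on low counts was the same here, so a gene could be tested through wells with Runx1 alone. Kit had 35, 16, 73 and 43 transcripts in wells with Runx1 and 8, 1, 1 and 3 in wells without Runx1 (log2 fold change 1.80 ± 0.46, adjusted p = 0.0286). Myb, with 70 transcripts in wells with Runx1 and 0 in wells without Runx1, was below the filter. Mycn, a growth regulator that was named here after its values were seen, had 302 transcripts in wells with Runx1 and 11 in wells without Runx1 (log2 fold change 2.79 ± 0.43, adjusted p = 0.000166).

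Fewer blood genes passed in the strict wells. Cd34 (0.60 ± 0.37), Gata2 (0.65 ± 0.50) and Itga2b (-0.08 ± 0.51) did not pass. Itga2b had 34.2 ± 17.9 CPM in strict wells with Runx1 and 38.9 ± 15.4 CPM in strict wells without Runx1, on sums that were not TMM-scaled. These rest on 7, 8, 32 and 18 transcripts with Runx1 and only 5, 1, 2 and 7 without Runx1 in libraries 1 to 4. Zfpm1 (2.35), Lmo2 (1.49), Meis1 (1.36), Cbfa2t3 (1.34) and Etv6 (1.17) did not pass either, and stood at 1.98, 1.92, 1.5, 1.61 and 1.05 over all wells. Of the lists, 6 of 10 tested blood signalling and actin genes and 2 of 12 blood transcription factors, Ikzf1 and Ikzf2, were higher, the factors at a median of 1.27. Of the vein and lymph-vessel genes, 8 of 9 tested were lower, as were 7 of 24 pan-endothelial genes. Aplnr stood at -3.48 ± 0.40, Gpr182 at -3.25 ± 0.42, Stab2 at -2.89 ± 0.38, Nrp2 at -2.32 and Lyve1 at -1.81 ± 0.26.

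Over the wells with all 6 vessel genes, 21 with and 16 without Runx1, genes of both kinds were detected. After thinning to 5000 transcripts, Kit was left in 7 of 21 wells with Runx1 and 2 of 16 wells without Runx1, Adgrg1 in 8 and 0, and Myb in 4 and 0. Kdr was left in 8 of 21 wells with Runx1 and 15 of 16 wells without Runx1, Aplnr in 1 and 7, and Lyve1 in 12 and 12. Set beside the blood progenitor wells, the wells with Runx1 and 5 or 6 vessel genes lay between them and the strict wells without Runx1 for each gene of the bar plot except Mycn and Apoa1. For Kit the levels were 90.7 transcripts per 1000000 in strict wells with Runx1, 26.8 in strict wells without Runx1 and 95.6 in blood progenitor wells. For Lyve1 they were 434 in strict wells with Runx1, 1063 in strict wells without Runx1 and 48.4 in blood progenitor wells. Mycn differed from this order, at 164 transcripts per 1000000 in strict wells with Runx1, 22.7 in strict wells without Runx1 and 76.4 in blood progenitor wells. These classes were set by the genes themselves or by the number of vessel genes, so the levels are a description.

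**Figure D5:**
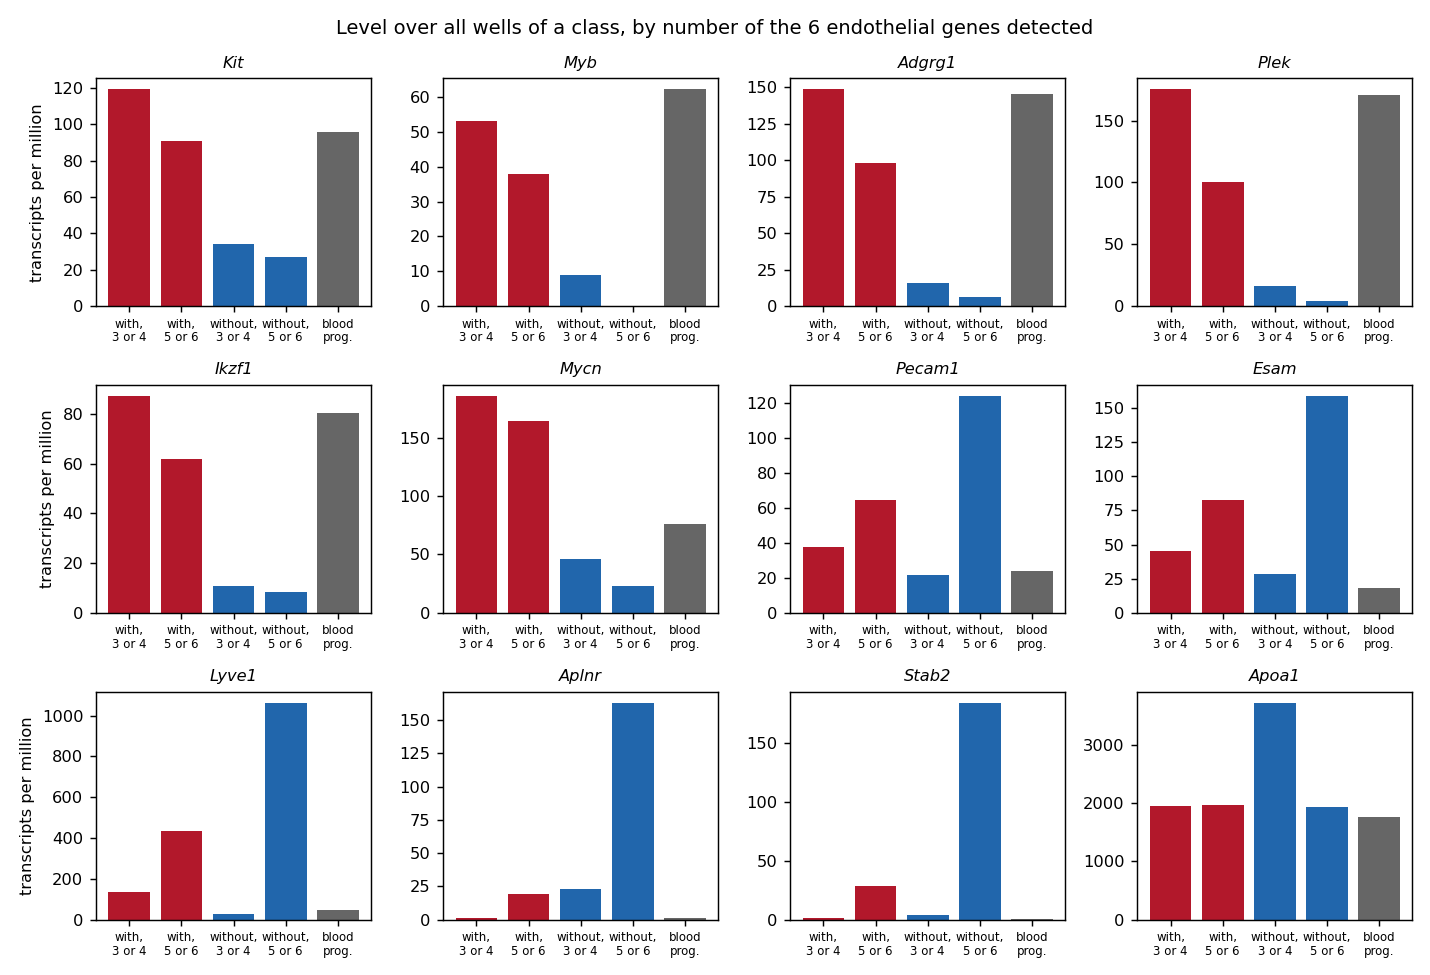
Transcripts per 1000000 over all wells of a class (y axis), for 12 genes, in wells with Runx1 (red) and wells without Runx1 (blue), each with 3 or 4 or with 5 or 6 vessel genes, and in blood progenitor wells (grey). Bars pool the wells of 4 libraries and carry no error, and Aplnr and Stab2 are highest in wells without Runx1 that have 5 or 6 vessel genes.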

How the data were processed

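Wells of 4 EMP libraries from mouse yolk sac at embryonic day 9.5 were analysed from the tables the authors deposited per library. These deposited values are estimated counts made by the authors: transcripts of a gene in a well after correction for identifier collisions, with no scaling for depth. Per the values, 100% returned whole numbers of identifiers out of 4096 at a tolerance of 1e-06. A deposited table of the A1/A2 libraries had identical values in shared wells. BWA 0.6.2-r126 and Seurat are named in the submitters' processing notes, with no roles, and the genome build is not given in the sources used here.

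Members, gene lists and the comparison were chosen with earlier results of these data known. Counts were summed per library and class, rounded and tested with edgeR 4.0.16 in R 4.3.3 (quasi-likelihood, robust fit, TMM, filterByExpr, Benjamini-Hochberg at 0.05), with library as a block, since both classes come from the same library. Runx1 was left out. CPM are TMM-scaled, and an SE is the absolute log2 fold change over the square root of F. Summed totals were 872962 to 1486539 transcripts in wells with Runx1 and 176613 to 389024 in wells without Runx1, so low genes are less precise in wells without Runx1. The edgeR fit was tested on simulated data.

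Named genes were Runx1 and the 6 vessel genes, the 15 highest and 15 lowest genes past the threshold with 50 CPM or more on average in the higher class and the same direction in 4 libraries (predicted, ribosomal protein and mitochondrial genes left out), up to 5 members of each of 16 lists with the smallest p, and all tested blood transcription factors. Other list members and genes are named beside their counts, after their values were seen. Alternatives numbered 22, of which 4 were added after seeing the data, and thinning draw 2, also added then, is given by its counts. Blood progenitor wells had fewer than 3 vessel genes with Kit and Runx1, and endoderm wells had at most 1 vessel gene and 2% or more endoderm transcripts. These groups were not kept apart, so a well can be in both.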

Additional observations from a re-analysis of the deposited data

Results flagged for a closer look

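For 107 named genes in each class, 214 groups of 4 libraries were examined for a library whose gap to its nearest neighbour took most of the group's range. Chance gives about 1 such group in 20, and 15 were found. The number beside each gene below is that gap as a share of the range.

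In wells with Runx1, Ramp2 was low in library 1 (0.914, 50.1 CPM beside 71.5 to 73.5), Flt1 was low in library 2 (0.831, 48.2 CPM beside 69.4 to 73.7) and Lyve1 was high in library 3 (0.854, 360 CPM beside 187 to 212). In the same wells, Mest (0.879, 63.3 CPM beside 47.5 to 49.4) and Prtn3 (0.880, 41.9 CPM beside 23.0 to 25.3) were high in library 4.

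In wells without Runx1, Lyve1 (0.875, 308 CPM beside 576 to 614) and Bmpr2 (0.884, 36.9 CPM beside 59.4 to 62.3) were low in library 2. Library 3 of the wells without Runx1 stood above the others for 8 genes. The mesenchyme genes were Col1a1 (0.973, 1252 CPM beside 12.3 to 45.3), Col1a2 (0.963, 902 CPM beside 16.4 to 49.2), Col3a1 (0.957, 571 CPM beside 0 to 24.6) and Acta2 (0.890, 173 CPM beside 4.09 to 22.6). The others were Gata2 (0.919, 43.2 CPM beside 18.5 to 20.5), Pcna (0.913, 91.1 CPM beside 45.3 to 49.2), and Coro1a and Itga4, each with 0.882 and 23.98 CPM beside 0 to 2.83.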

How the results depend on the processing

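The count of 808 called genes moved by over 1.5 times under these settings: DESeq2 gave 276 (273 of them among the 808), wells thinned to 5000 after the classes were set 218, wells thinned before 66, at least 4 of the 6 vessel genes 154, at least 5 of 6 122, no deep wells 1370 and leaving out the 25% of wells highest in endoderm genes 244. Among alternatives added after seeing the data, at least 5 of 6 with thinning gave 28, thinning draw 3 gave 206 (draw 2 gave 65 higher and 127 lower) and an endoderm share under 1.5% 284. Both classes share a library, so library was the replicate block, and without the block 367 genes passed. Leaving out 1 library gave 305 to 1112, with 305 without library 1, 1112 without library 2, 558 without library 3 and 395 without library 4. Of the 808, 42.2% were higher with Runx1. That share was 61.2% with no filter on low counts (986 called), 21.2% when thinned before classes, 33.9% in draw 2, 29.6% in draw 3, 28.6% at 4 of 6, 19.7% at 5 of 6, 28.7% without the endoderm 25%, 31.7% under 1.5% endoderm and 14.3% at 5 of 6 thinned. Directions turned for Apoa1, Apob and Ttr at 4 of 6 (0.40, 0.24 and 0.30), at 5 of 6 (0.47, 0.52 and 0.42) and without the endoderm 25% (0.23, 0.15 and 0.18), for Apob at 5 of 6 thinned (0.0915) and for Itga2b at 5 of 6 (-0.0776). For Itga2b at 5 of 6, wells without Runx1 held 15 transcripts in all. The cause of these turns was not tested. Of 84 called named genes, 80 turned under no setting that could test them and 36 also stayed past the threshold in each. Kit missed it without the endoderm 25% (0.90, adjusted p = 0.108), and Mest (-2.48, adjusted p = 0.0511) and Lyve1 (-1.27, adjusted p = 0.131) without deep wells. Both also missed it under 1.5% endoderm (-3.32 and -1.63), and Lyve1 when thinned before classes (-0.73). The difference in well totals kept its sign under every alternative run on it, from 0.37 at a minimum of 10000 to 0.96 at 4 of 6. Depth limits what can be tested: thinning both classes to 5000 left 1438 genes.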

Other observations

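The same endothelial rule was applied to the A1/A2 libraries of the series, which are sorted myeloid progenitors. Of their 306 wells with 5000 or more transcripts, 4 passed, 2 in library 2 and 2 in library 4, and each of these 4 wells held Runx1. With no well without Runx1 among them, no comparison was made there.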
